A study of Mus musculus with 9 samples.

Results

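The T cell receptor complex and its effector genes were followed as 10 named genes, Cd3d, Cd3e, Cd3g, Cd247, Cd4, Cd8a, Lck, Zap70, Gzma and Gzmb, in RNA from mouse colonic tissue. They were chosen by gene name, as CD3 chains, coreceptors, proximal kinases and granzymes, and all 10 were found among the 55401 entries of the deposited expression table. In high-fat diet libraries the CD3 chain genes and Cd4 were lower than in chow libraries, while Zap70 and Gzmb were higher. The Gzmb values of these 2 groups overlapped, and the Gzmb difference was lost in 9 of 20 alternative settings. Gzmb also entered the test only through its level in high-fat diet libraries. In berberine libraries the CD3 chain genes, Cd4, Cd8a and Lck were higher than in high-fat diet libraries, and Zap70 and Gzmb were lower. In this comparison the difference was lost in 3 of 19 alternative settings for Cd8a and 3 of 20 for Lck. It was lost in 4 of 20 for Zap70 and 2 of 20 for Gzmb. No difference between berberine and chow libraries passed the test for any of the 10 genes.

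A T cell recognises peptides through a receptor of variable chains that has no signalling tail of its own and depends on the CD3 chains and on the zeta chain, the product of Cd247. The coreceptors CD4 and CD8 bind MHC molecules and bring the kinase LCK to the receptor, LCK phosphorylates the CD3 and zeta tails, and ZAP70 binds there and passes the signal on to adaptors. Granzymes A and B are serine proteases that cytotoxic lymphocytes store in granules and release into target cells. The colon wall holds T cells within the epithelium, in the lamina propria and in lymphoid follicles, so whole colonic tissue gives the summed RNA of these and of all other cells.

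The study compared 3 groups of wild type mice, with 3 libraries of colonic tissue in each. The berberine group received berberine, a plant alkaloid. The high-fat diet group carries AOM and DSS in its sample titles, as does the chow group; in mouse colon studies these letters stand for azoxymethane, a carcinogen, and dextran sulfate sodium, which injures the colon lining. The labels used here do not give the diet of the berberine group, whether it received AOM or DSS, the strain, sex or age, or whether the libraries of a group came from separate animals, so p-values measure the spread between these libraries, which may be technical in part.

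Between 51961764 and 69007117 estimated counts were deposited per library. The 8 markers of epithelium, the lining of the colon, summed to between 8415 and 12860 CPM (counts scaled to a common library size) in every library, and all 10 receptor and effector genes had counts above 0 in every library. High-fat diet replicate 1 stood apart in mast cell markers, whose 10 genes summed to 4634, 1071 and 272 CPM in high-fat diet replicates 1 to 3, against 66.8 to 134 CPM in the chow libraries and 74.7 to 90.4 CPM in the berberine libraries. Chow replicate 2 had the lowest values of most CD3 and coreceptor genes in its group. Values without these libraries are given where they change a result.

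The genes lie at separate places except for a cluster on chromosome 9 (GRCm38). There Cd3g (ENSMUSG00000002033, 44969572 to 44980431, minus strand) and Cd3d (ENSMUSG00000032094, 44981786 to 44987339, plus strand) start 1355 bases apart and point away from each other, and Cd3e (ENSMUSG00000032093, 44998740 to 45009622, minus strand) lies next to them, so that the cluster spans 40051 bases. Cd247 (ENSMUSG00000005763, 165788681 to 165871153, plus strand) and Zap70 (ENSMUSG00000026117, 36761798 to 36782818, plus strand) are on chromosome 1, and Cd4 (ENSMUSG00000023274, 124864692 to 124888221, minus strand) and Cd8a (ENSMUSG00000053977, 71373427 to 71379169, plus strand) are on chromosome 6. Lck (ENSMUSG00000000409) covers 129548344 to 129558391 on the minus strand of chromosome 4, Gzma (ENSMUSG00000023132) 113093825 to 113100981 on the minus strand of chromosome 13, and Gzmb (ENSMUSG00000015437) 56258838 to 56262260 on the minus strand of chromosome 14.

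RefSeq promoter windows (GRCm38.p6, 250 bases before to 50 after the gene start) were matched for 9 of the 10 genes, all but Cd4. The windows of Cd3d, Zap70 and Gzmb are shown because these genes stand for the opposite responses described below: Cd3d was lower in high-fat diet libraries, and Zap70 and Gzmb were higher. Capitals mark, on either strand, CTTTGA (the core letters of TCF/LEF factors, TCAAAG on the other strand) in Cd3d and Zap70, and TGTGGT (RUNX factors, ACCACA on the other strand) in Gzmb.
Cd3d promoter, chr9:44981536-44981835, plus strand: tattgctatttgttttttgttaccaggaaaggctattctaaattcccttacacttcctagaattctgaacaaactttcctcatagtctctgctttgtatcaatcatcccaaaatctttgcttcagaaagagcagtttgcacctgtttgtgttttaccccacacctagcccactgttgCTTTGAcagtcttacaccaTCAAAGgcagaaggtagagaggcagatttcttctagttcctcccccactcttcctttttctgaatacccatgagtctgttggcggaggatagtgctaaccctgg
Zap70 promoter, chr1:36761548-36761847, plus strand: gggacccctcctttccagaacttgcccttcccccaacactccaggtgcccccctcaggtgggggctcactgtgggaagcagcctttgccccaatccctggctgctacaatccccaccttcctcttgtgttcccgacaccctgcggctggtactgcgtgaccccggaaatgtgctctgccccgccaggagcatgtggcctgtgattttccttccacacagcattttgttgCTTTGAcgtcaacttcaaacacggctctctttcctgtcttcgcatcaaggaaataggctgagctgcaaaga
Gzmb promoter, chr14:56262285-56262584, minus strand: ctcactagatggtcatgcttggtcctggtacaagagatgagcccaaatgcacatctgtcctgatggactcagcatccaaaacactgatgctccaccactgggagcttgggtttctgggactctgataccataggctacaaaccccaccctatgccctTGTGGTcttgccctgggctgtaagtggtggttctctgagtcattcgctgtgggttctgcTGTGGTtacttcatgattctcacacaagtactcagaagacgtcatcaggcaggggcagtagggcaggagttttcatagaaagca
The CTTTGA letters occurred in 3 of the 9 windows (Cd3d, Cd247 and Zap70), against 16.0% of all 32851 promoter windows, and thus in genes that were lower and in 1 that was higher in high-fat diet libraries. The TGTGGT letters occurred in 2 of 9, those of Gzma and Gzmb, against 16.8%. AGGAAG (ETS factors, CTTCCT on the other strand) occurred in 5 of 9, against 35.4%. AGATAA, which zinc-finger factors of the GATA family bind (TTATCT on the other strand), occurred in 1 of 9, that of Cd3g, against 11.2%. CACCTG (an E-box, CAGGTG on the other strand) occurred in 7 of 9, against 20.2%. No marked stretch overlapped a match to another of these motifs, and the RefSeq start of Gzmb lies 74 bases from the start in the deposited table.

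The comparison of high-fat diet with chow addresses the effect of diet in colons of mice given AOM and DSS. A gene was called at an adjusted p under 0.05 (edgeR's quasi-likelihood test, Benjamini-Hochberg) over the 14506 genes whose mean level reached 1 FPKM, a value scaled by gene length and depth. Of the 8 receptor and effector genes that passed this filter, 4 were lower (Cd3d, Cd3e, Cd3g and Cd4), 2 were higher (Zap70 and Gzmb) and 2 were not called (Lck and Gzma). Among all tested genes 31.8% were called in this comparison, 15.2% higher and 16.6% lower. The groups did not overlap for 5 of the 8, against 45.7% of all tested genes. Cd247 and Cd8a fell under the filter and were read from a wider fit, of 22193 genes whose mean level reached 0.1 FPKM, in which 23.9% were called, 11.7% higher and 12.1% lower. There Cd247 was lower and Cd8a was not called.

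The comparison of berberine with high-fat diet sets the group given the alkaloid against the high-fat diet group. The labels do not give the diet of the berberine group or whether it received AOM or DSS. These may differ as well and cannot be told apart from berberine here. Of the same 8 genes 5 were higher in berberine libraries (Cd3d, Cd3e, Cd3g, Cd4 and Lck), 2 were lower (Zap70 and Gzmb) and Gzma was not called. Among all tested genes 30.7% were called, 15.8% higher and 14.9% lower. The groups did not overlap for any of the 8, against 50.4% of all tested genes. In the wider fit, where 22.5% of genes were called, 11.2% higher and 11.3% lower, Cd247 and Cd8a were both higher in berberine libraries. Both comparisons share the high-fat diet libraries, so a gene that is unusually low or high there moves in opposite directions in the 2 comparisons.

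**Figure D1:**
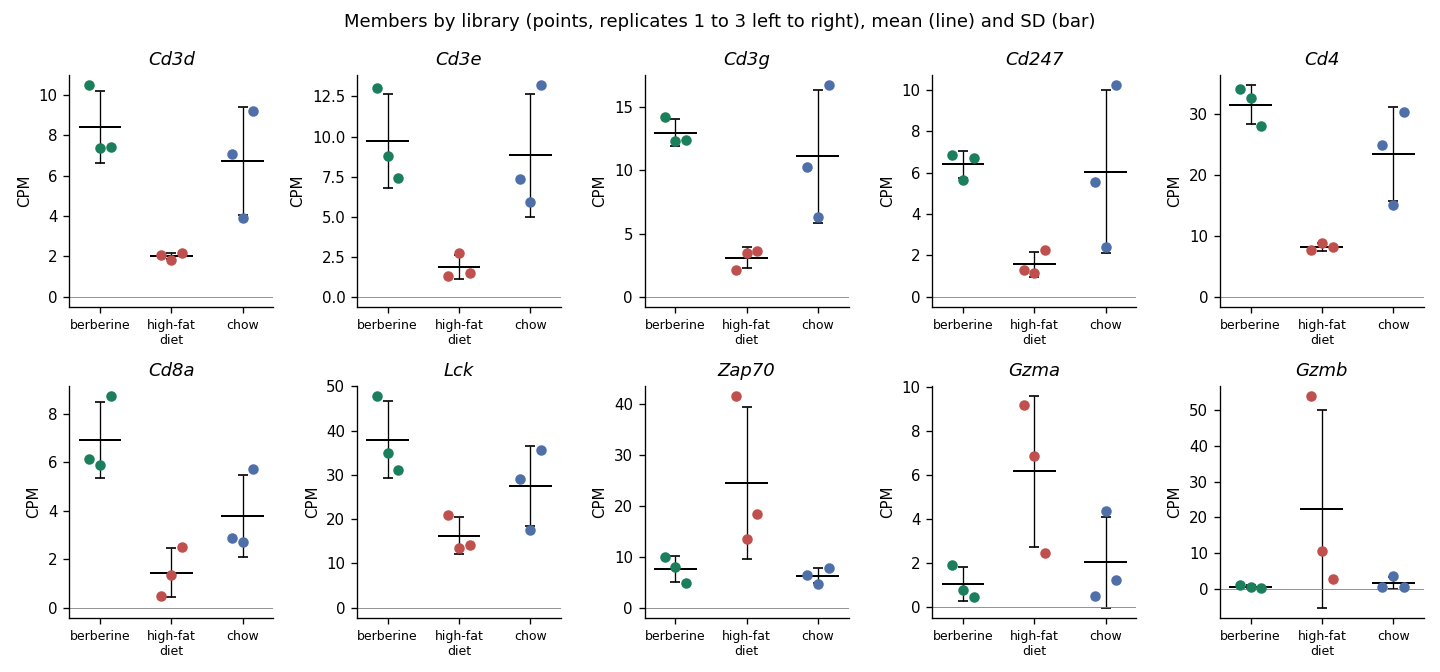
CPM of each of the 10 genes in every library, berberine left, high-fat diet in the middle and chow right, with 1 point per library, a line at the mean and a bar of 1 SD (n = 3). Cd3d lies between 1.83 and 2.16 CPM in high-fat diet libraries and at 3.88 CPM or more elsewhere, while Zap70 lies at 13.5 CPM or more in high-fat diet libraries and at 9.92 CPM or less elsewhere.

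The CD3 chain genes were lower in every high-fat diet library than in any library of the other groups. Cd3e, the epsilon chain that pairs with both delta and gamma, had 13.0, 8.76 and 7.43 CPM in berberine libraries, 1.33, 2.75 and 1.51 CPM in high-fat diet libraries and 7.38, 5.93 and 13.2 CPM in chow libraries. The high-fat diet values stood below all others, and the berberine and chow values overlapped. Cd3e was 4.74-fold lower in high-fat diet than in chow (log2 fold change -2.25 ± 0.42 SE, adjusted p = 0.00524) and 5.23-fold higher in berberine than in high-fat diet (2.39 ± 0.43, adjusted p = 0.00414).

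Cd3d, the delta chain, had 10.5, 7.34 and 7.40 CPM in berberine libraries, 2.07, 1.83 and 2.16 CPM in high-fat diet libraries and 7.06, 3.88 and 9.19 CPM in chow libraries. The 3 high-fat diet libraries lay close together, and chow replicate 2 was the nearest to them. Cd3d was 3.32-fold lower in high-fat diet than in chow (-1.73 ± 0.34, adjusted p = 0.00591) and 4.15-fold higher in berberine than in high-fat diet (2.05 ± 0.34, adjusted p = 0.00298).

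Cd3g, the gamma chain, had 14.2, 12.4 and 12.4 CPM in berberine libraries, 2.15, 3.50 and 3.66 CPM in high-fat diet libraries and 10.3, 6.30 and 16.7 CPM in chow libraries. Again only the berberine and chow values overlapped. The gene was 3.58-fold lower in high-fat diet than in chow (-1.84 ± 0.37, adjusted p = 0.00666) and 4.18-fold higher in berberine than in high-fat diet (2.07 ± 0.37, adjusted p = 0.00424).

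Cd247 had 6.86, 5.67 and 6.70 CPM in berberine libraries, 1.30, 1.17 and 2.26 CPM in high-fat diet libraries and 5.54, 2.41 and 10.2 CPM in chow libraries. Chow replicate 2 lay just above the highest high-fat diet library, and the groups did not overlap. In the wider fit Cd247 was lower in high-fat diet than in chow (-1.90 ± 0.50, adjusted p = 0.0251) and higher in berberine than in high-fat diet (2.01 ± 0.50, adjusted p = 0.022). The first call was lost in 7 of 19 alternative settings: with limma (adjusted p = 0.0779 and 0.0565 with 1 and 0.1 FPKM added), in a fit of only the groups compared (0.0705), and when high-fat diet replicate 1 (adjusted p = 0.0788), high-fat diet replicate 2 (0.0817), chow replicate 1 (0.0515) or chow replicate 3 (a log2 fold change of -1.30, adjusted p = 0.0686) was left out. The second was lost with limma and 1 FPKM added (0.0501), without any single berberine library (0.0513 to 0.0584) and with high-fat diet replicate 1 or 2 left out (0.0699 and 0.0713). Cd247 overlaps Pou2f1 on the opposite strand by 6000 bases, a gene with a mean of 2141 counts per library. The library kit marked the strand, per the labels' protocols, but whether the counting used it is not given in the sources used here, so reads of the shared stretch could belong to either gene.

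Cd4, the coreceptor for MHC class II, had 34.1, 32.7 and 28.1 CPM in berberine libraries, 7.63, 8.86 and 8.15 CPM in high-fat diet libraries and 25.0, 15.1 and 30.5 CPM in chow libraries. The high-fat diet libraries were the lowest, with little spread, and the berberine and chow values overlapped. Cd4 was 2.86-fold lower in high-fat diet than in chow (-1.52 ± 0.25, adjusted p = 0.00267) and 3.85-fold higher in berberine than in high-fat diet (1.94 ± 0.25, adjusted p = 0.00095). CD4 is also carried by some macrophages and other myeloid cells, and the 10 macrophage markers summed to 1058 to 1213 CPM in berberine, 559 to 911 CPM in high-fat diet and 606 to 962 CPM in chow libraries. Of the 9 macrophage markers tested, 1 was higher and 1 lower in high-fat diet than in chow, and 2 were higher in berberine than in high-fat diet. Over all tested genes 15.2% were higher and 16.6% lower in the first comparison, and 15.8% higher in the second. The part of macrophages in the Cd4 result was not tested.

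Cd8a, the alpha chain of the coreceptor for MHC class I, had 6.13, 5.86 and 8.72 CPM in berberine libraries, 0.493, 1.34 and 2.50 CPM in high-fat diet libraries and 2.89, 2.70 and 5.72 CPM in chow libraries. Here all 3 groups were apart, with the lowest berberine library just above the highest chow library and the highest high-fat diet library just under the lowest chow library. In the wider fit Cd8a was higher in berberine than in high-fat diet (2.25 ± 0.57, adjusted p = 0.0227), a call that was lost without berberine replicate 2 (0.0506), berberine replicate 3 (0.0694) or high-fat diet replicate 2 (0.0681) and stood at a log2 fold change of 2.88 without high-fat diet replicate 3. The difference of high-fat diet from chow was -1.35 ± 0.55 and was not called (adjusted p = 0.111), although it passed with DESeq2 (adjusted p = 0.0459), with the replicate number as a block (0.0449) and without high-fat diet replicate 3 (-1.98, adjusted p = 0.0392). The ratio of Cd4 to Cd8a CPM was 5.57, 5.58 and 3.22 in berberine libraries, 15.5, 6.61 and 3.26 in high-fat diet libraries and 8.64, 5.59 and 5.33 in chow libraries. These ratios overlapped between all groups.

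The kinase genes went apart. Lck, the kinase bound to the coreceptor tails, had 47.8, 35.0 and 31.1 CPM in berberine libraries, 21.0, 13.6 and 14.2 CPM in high-fat diet libraries and 29.0, 17.7 and 35.7 CPM in chow libraries. High-fat diet replicate 1 lay above chow replicate 2, so these groups overlapped, while every berberine library was above every high-fat diet library. Lck was 2.34-fold higher in berberine than in high-fat diet (1.23 ± 0.30, adjusted p = 0.0153), a call lost without berberine replicate 1 (0.0514), high-fat diet replicate 2 (0.0525) or high-fat diet replicate 3 (0.0513). The difference of high-fat diet from chow was -0.76 ± 0.30 and was not called (adjusted p = 0.0813), and it passed with DESeq2 (0.043), without chow replicate 2 (-0.99, adjusted p = 0.0284) and without both this library and high-fat diet replicate 1 (-1.23, adjusted p = 0.0156).

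Zap70, the kinase that binds the phosphorylated CD3 and zeta tails, had 9.92, 8.01 and 4.84 CPM in berberine libraries, 41.5, 13.5 and 18.4 CPM in high-fat diet libraries and 6.46, 4.68 and 7.72 CPM in chow libraries. All high-fat diet libraries were above all others, and replicate 1 was the highest by far. Zap70 was 3.89-fold higher in high-fat diet than in chow (1.96 ± 0.46, adjusted p = 0.0125) and 3.22-fold lower in berberine than in high-fat diet (-1.69 ± 0.45, adjusted p = 0.0227). Without high-fat diet replicate 1 the first value was 1.34 (adjusted p = 0.0324) and the second -1.06 (adjusted p = 0.0682). The first call was lost when high-fat diet replicate 1 and chow replicate 2 were both left out (1.16, adjusted p = 0.0728), as was the second (-1.06, adjusted p = 0.0591), which was also lost without berberine replicate 2 (0.0651) or berberine replicate 3 (0.0745).

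The granzyme genes had their highest means in high-fat diet libraries, where the libraries also differed widely. Gzmb had 1.02, 0.500 and 0.196 CPM in berberine libraries, 53.9, 10.5 and 2.66 CPM in high-fat diet libraries and 0.549, 3.49 and 0.613 CPM in chow libraries. High-fat diet replicate 3 lay below chow replicate 2, and all berberine libraries lay below all high-fat diet libraries. Gzmb reached the filter only through the high-fat diet libraries, with a mean of 14.8 FPKM there and of 0.349 FPKM in berberine and 0.901 FPKM in chow libraries, so its place among the genes tested is tied to its difference. The lowest value, that of berberine replicate 3, rests on 12 counts, and low counts in this table tend to come in steps of 4.

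Gzmb was 14.5-fold higher in high-fat diet than in chow (3.86 ± 1.22, adjusted p = 0.0415). With high-fat diet replicate 1 left out it stood at 2.09 and the call was lost (adjusted p = 0.167), as it was with high-fat diet replicate 2 (0.0541), chow replicate 1 (0.113), chow replicate 3 (0.106) or any berberine library (0.0501 to 0.0619) left out, in a fit of only the groups compared (0.0733) and with the replicate number as a block (0.0567). Without chow replicate 2 the log2 fold change was 5.27 (adjusted p = 0.0294). Gzmb was 39.4-fold lower in berberine than in high-fat diet (-5.30 ± 1.32, adjusted p = 0.017). With high-fat diet replicate 1 left out that difference was -3.52 (adjusted p = 0.0466), with berberine replicate 1 left out it was -5.99 (adjusted p = 0.0374), and its call was lost without berberine replicate 2 (0.065) or berberine replicate 3 (0.0598).

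Gzma had 1.90, 0.765 and 0.440 CPM in berberine libraries, 9.15, 6.86 and 2.44 CPM in high-fat diet libraries and 0.484, 4.36 and 1.23 CPM in chow libraries. High-fat diet replicate 3 again lay below chow replicate 2, and the berberine libraries were below all high-fat diet libraries. Neither difference was called: it was 1.61 ± 0.86 for high-fat diet against chow (adjusted p = 0.19) and -2.58 ± 0.90 for berberine against high-fat diet (adjusted p = 0.0583). The first passed without chow replicate 2 (2.84, adjusted p = 0.0442), and the second passed in 9 of 20 alternative settings, DESeq2 among them (0.00804).

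Mast cell markers were also high in high-fat diet libraries. The mast cell sums of 4634, 1071 and 272 CPM in high-fat diet replicates 1 to 3 ranked in the same order as the Gzmb values there, but not in that of the Zap70 values, which were higher in replicate 3 than in replicate 2. Gzma had the order of the mast cell sums too, as did the sums of T cell surface genes (77.8, 60.9 and 46.6 CPM) and macrophage markers (911, 614 and 559 CPM). Those of B cell genes (333, 170 and 171 CPM) and smooth muscle genes (1508, 2356 and 7296 CPM) did not. The order of 3 libraries is given as a description only. Outside high-fat diet the mast cell sums consisted largely of Kit, the stem cell factor receptor, which averaged 65.8 CPM in berberine, 30.8 CPM in high-fat diet and 86.2 CPM in chow libraries and is not confined to mast cells. Of the 8 mast cell genes tested, 7 were higher and 1 (Kit) was lower in high-fat diet than in chow, and 6 were lower, 1 (Kit) higher and 1 (Cma1, a chymase) not called in berberine against high-fat diet. Over all tested genes 15.2% were higher in the first comparison and 14.9% lower in the second. For 4 of the 8 mast cell genes (Cpa3, Fcer1a, Mcpt4 and Tpsab1) only the high-fat diet mean reached 1 FPKM, so the mast cell counts are set in part by the filter. Mcpt1, a mast cell protease, averaged 4.96 ± 1.16 CPM in berberine, 1034 ± 1210 CPM in high-fat diet and 1.18 ± 0.11 CPM in chow libraries (SD, n = 3). Fcer1a, the alpha chain of the IgE receptor, and Tpsab1, a tryptase, were at 0 in all chow libraries and in none of the high-fat diet libraries. Gzmb is known from mouse mast cells as well as from lymphocytes. The part of mast cells in the granzyme and Zap70 results was not tested.

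**Figure D2:**
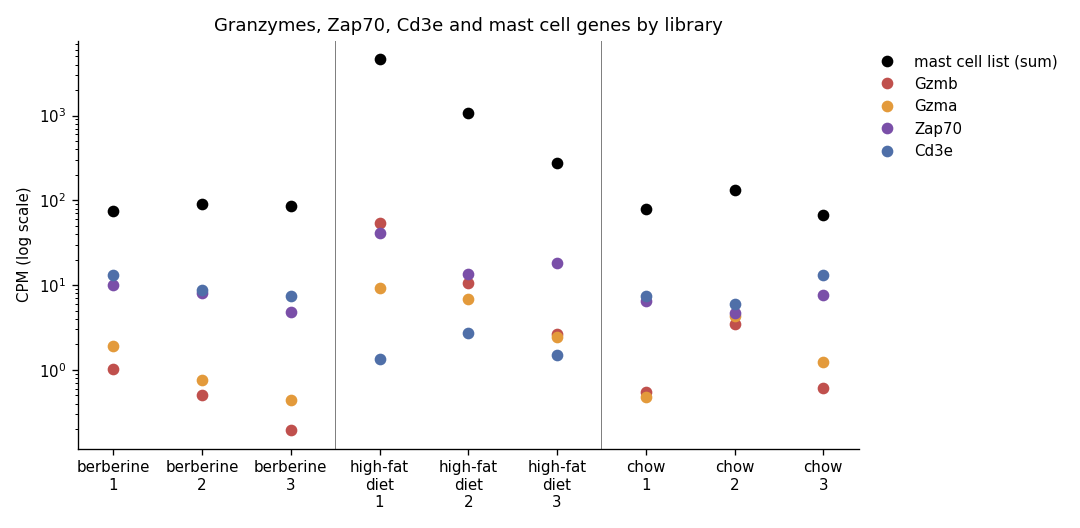
CPM on a log scale of Gzmb, Gzma, Zap70, Cd3e and the sum of 10 mast cell genes in each of the 9 libraries, berberine left, high-fat diet in the middle and chow right. In high-fat diet replicate 1 Gzmb stands at 53.9 CPM and Cd3e at 1.33 CPM, while in berberine replicate 1 Gzmb stands at 1.02 CPM and Cd3e at 13.0 CPM.

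**Figure D3:**
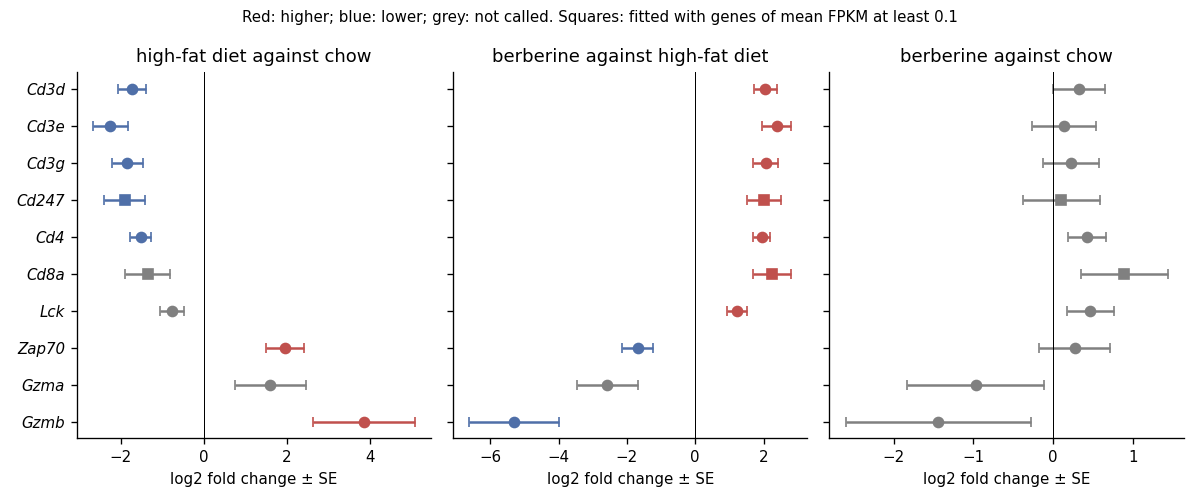
Log2 fold changes ± SE of the 10 genes in each comparison, from edgeR, with squares for the 2 genes fitted under the wider filter. The CD3 chain genes and Cd4 lie between -2.25 and -1.52 for high-fat diet against chow, where Zap70 and Gzmb lie at 1.96 and 3.86.

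The genes were also set against Cd3e within each library. Cd3e was itself lower in high-fat diet libraries, so a gene that fell less than Cd3e has a higher ratio there. How many of all tested genes have such a ratio was not computed. The log2 ratios of Cd3d, Cd3g, Cd247 and Cd4 to Cd3e overlapped between groups in all 3 comparisons. The log2 ratio of Zap70 to Cd3e averaged -0.38 ± 0.24 in berberine, 3.54 ± 1.31 in high-fat diet and -0.43 ± 0.30 in chow libraries (SD, n = 3). That of Gzmb averaged -4.04 ± 0.57 in berberine, 2.64 ± 2.32 in high-fat diet and -2.83 ± 1.84 in chow libraries, and that of Gzma -3.29 ± 0.54, 1.55 ± 1.05 and -2.48 ± 1.78 in the same groups. That of Lck averaged 1.97 ± 0.09 in berberine, 3.10 ± 0.81 in high-fat diet and 1.65 ± 0.28 in chow libraries. Lck itself was not higher in high-fat diet than in chow (log2 fold change -0.76, not called). For Lck, Zap70, Gzma and Gzmb the ratios of the high-fat diet libraries stood above all those of the other groups, each with an exact two-sided permutation p of 0.1, the smallest that 3 libraries against 3 can give, and 0.3 after Benjamini-Hochberg adjustment over the 27 ratios compared. The design thus cannot reach 0.05 for these ratios. The ratio of Cd8a to Cd3e was the only one apart between berberine and chow, by 0.73 on the log2 scale with the same exact p.

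**Figure D4:**
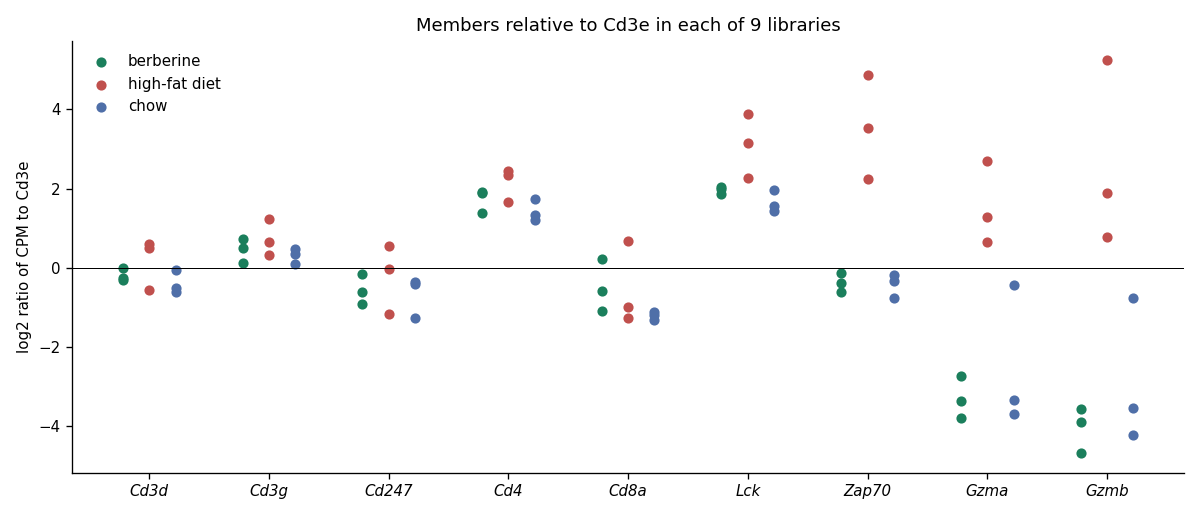
Log2 ratio of each gene's CPM to that of Cd3e in every library, with 0.1 CPM added to both, coloured by group. For Lck, Zap70, Gzma and Gzmb the high-fat diet points lie above all others, and for Zap70 they average 3.54 while the chow points average -0.43. Cd3e itself was lower in high-fat diet libraries.

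Levels were compared between genes per length, in FPKM. In berberine libraries Lck was the highest at 11.4 ± 2.9 FPKM, followed by Cd4 (6.91 ± 0.87), Cd3d (4.08 ± 0.96), Cd3g (3.50 ± 0.36), Zap70 (2.24 ± 0.81), Cd3e (2.10 ± 0.69), Cd8a (1.66 ± 0.33), Cd247 (1.06 ± 0.11), Gzma (0.907 ± 0.69) and Gzmb (0.349 ± 0.26; SD, n = 3). In high-fat diet libraries the order began with Gzmb (14.8 ± 18.3 FPKM), Zap70 (7.71 ± 4.79), Gzma (5.80 ± 3.29) and Lck (5.21 ± 1.39), then Cd4 (1.92 ± 0.17), Cd3d (1.04 ± 0.07), Cd3g (0.889 ± 0.23), Cd3e (0.430 ± 0.18), Cd8a (0.367 ± 0.25) and Cd247 (0.273 ± 0.09). In chow libraries it ran from Lck (8.18 ± 2.97 FPKM) and Cd4 (5.09 ± 1.84) through Cd3d, Cd3g, Cd3e, Zap70, Gzma and Cd247 to Gzmb (0.901 ± 0.94) and Cd8a (0.899 ± 0.42). Neighbours in these orders overlapped except Lck and Cd4, Cd4 and Cd3d, Cd3g and Zap70, and Cd8a and Cd247 in berberine libraries, and Lck and Cd4, and Cd4 and Cd3d, in high-fat diet libraries. The first places in high-fat diet libraries rested on replicate 1: without it, an alternative chosen after seeing the data, the means were 4.97 FPKM for Zap70, 4.41 FPKM for Lck, 4.38 FPKM for Gzma and 4.37 FPKM for Gzmb, ahead of Cd4 (1.97 FPKM). In the other groups the means of Zap70 and the granzymes stood below those of Lck, Cd4, Cd3d and Cd3g.

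Berberine was last compared with chow. None of the 8 genes tested was called by edgeR's quasi-likelihood test, against 0.0483% of all tested genes (7 of 14506), of which 0.0414% were higher and 0.00689% lower. None had an unadjusted p under 0.05. DESeq2 called 0 of the 8 and 380 of all 14506 tested genes, and limma called 0 of the 8 and 9 or 8 of all tested genes with 1 or 0.1 FPKM added. The groups overlapped for all 8, while 18.1% of all tested genes did not overlap. The log2 fold changes of the CD3 chain genes were 0.32 ± 0.33 (Cd3d), 0.14 ± 0.40 (Cd3e) and 0.22 ± 0.36 (Cd3g), with adjusted p from 0.761 to 0.926. Those of Cd4 and Lck were 0.43 ± 0.24 (adjusted p = 0.545) and 0.47 ± 0.29 (adjusted p = 0.597), and that of Zap70 was 0.27 ± 0.44 (adjusted p = 0.857). Those of Gzma and Gzmb were -0.97 ± 0.86 (adjusted p = 0.727) and -1.44 ± 1.16 (adjusted p = 0.692). In the wider fit, where 0.00901% of genes were called, all higher, Cd247 stood at 0.10 ± 0.48 (adjusted p = 0.973) and Cd8a at 0.90 ± 0.54 (adjusted p = 0.62), and Cd8a was the 1 of the 10 whose groups did not overlap. Standard errors of 0.24 to 1.16 on the log2 scale limit what these libraries can show, and a p that misses the threshold does not show that the groups are alike.

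Many genes of the receptor itself and of T cell surface molecules were called in the same direction as the CD3 chains. Of the T cell receptor constant region genes 4 of 7 were found and 3 tested, and all 3 were lower in high-fat diet than in chow and higher in berberine than in high-fat diet. Over all tested genes 16.6% were lower in the first comparison and 15.8% higher in the second. Trac, the alpha constant region, averaged 8.20 ± 2.51 CPM in berberine, 2.28 ± 0.22 CPM in high-fat diet and 8.92 ± 4.42 CPM in chow libraries (SD, n = 3), and was lower in high-fat diet than in chow (-1.97, adjusted p = 0.00682). Trbc1 and Trbc2, the beta constant regions, which are alike in sequence so that the counting may have split reads between them, gave -1.69 (adjusted p = 0.0127) and -1.95 (adjusted p = 0.0125). Trdc, the delta constant region, was under the filter and averaged 1.80 ± 0.37, 1.60 ± 0.71 and 1.27 ± 0.90 CPM in berberine, high-fat diet and chow libraries, and it was not called in the wider fit (0.38, adjusted p = 0.68 for high-fat diet against chow).

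Of 20 T cell surface and costimulation genes 13 were tested. In high-fat diet against chow 8 were lower and 0 higher, with a median log2 fold change of -1.85, and in berberine against high-fat diet 9 were higher and 0 lower, with a median of 2.02; the medians of all tested genes were 0.00 and -0.01. Of all tested genes 16.6% were lower in the first comparison and 15.8% higher in the second. Not called in high-fat diet against chow were Ctla4 (-0.29, adjusted p = 0.709), Pdcd1 (-0.50, adjusted p = 0.614), Icos (-0.61, adjusted p = 0.118), Cd8b1 (-2.81, adjusted p = 0.0846) and Itgae, an integrin of intraepithelial T cells (0.64, adjusted p = 0.147). Icos was called higher in berberine than in high-fat diet (0.90, adjusted p = 0.0353), and Itgae was at -0.22 there (adjusted p = 0.622). Of the 7 genes tested in the wider fit alone, 4 were lower and 0 higher in high-fat diet than in chow, and 5 were higher and 0 lower in berberine than in high-fat diet. In that fit 12.1% of all genes were lower in the first comparison and 11.2% higher in the second. Cd27, a costimulatory receptor of the TNF receptor family, averaged 8.14 ± 1.62 CPM in berberine, 1.18 ± 0.15 CPM in high-fat diet and 7.35 ± 4.49 CPM in chow libraries, with log2 fold changes of -2.64 for high-fat diet against chow (adjusted p = 0.00269) and 2.78 for berberine against high-fat diet (adjusted p = 0.00217). Cd2, an adhesion receptor, gave -2.00 (adjusted p = 0.00522) and 2.39 (adjusted p = 0.00256), and Il2rb, the beta chain of the interleukin 2 receptor, gave -1.85 (adjusted p = 0.00434) and 1.97 (adjusted p = 0.00344). In bulk tissue, fewer T cells and less RNA of these genes per cell cannot be told apart.

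The signalling partners around LCK and ZAP70 held genes called in either direction. Of 20 such genes 13 were tested, and in high-fat diet against chow 4 were lower, 2 were higher and 7 were not called, with a median of -0.50. Lat, the adaptor that ZAP70 phosphorylates, was lower (-1.45, adjusted p = 0.0386), as were Sit1, a transmembrane adaptor (-2.60, adjusted p = 0.00417), and Ptprc, the phosphatase CD45 (-0.94, adjusted p = 0.0378). Plcg1, a phospholipase C also used by growth factor receptors of other cells, was higher, at 83.1 ± 8.0 CPM in high-fat diet and 43.7 ± 5.7 CPM in chow libraries (0.93, adjusted p = 0.0015). Prkcq, protein kinase C theta, was higher as well, at 15.9 ± 1.5 CPM in high-fat diet and 8.37 ± 1.47 CPM in chow libraries (0.92, adjusted p = 0.00851). In berberine against high-fat diet 5 were higher, among them Lat, Sit1, Ptprc and Csk, a kinase that restrains LCK, while Plcg1 and Prkcq were lower (-1.02 and -1.28, adjusted p = 0.001 and 0.00217), and 6 were not called, with a median of 0.59. The shares called among all tested genes were 15.2% higher and 16.6% lower in high-fat diet against chow, and 15.8% higher and 14.9% lower in berberine against high-fat diet. The other 7 genes were read from the wider fit, in which 4 were lower and 0 higher in high-fat diet than in chow: Skap1 (adjusted p = 0.00967), Txk (0.0221), Tespa1 (0.0351) and Ptpn22 (0.0432). The same 4 were higher in berberine than in high-fat diet (adjusted p = 0.0215, 0.0243, 0.0255 and 0.0222 in that order). In that fit 12.1% of all genes were lower in high-fat diet than in chow, and 11.2% higher in berberine than in high-fat diet.

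T lineage transcription factor genes were also called in either direction. Of 8 tested of 12, 3 were higher and 3 lower in high-fat diet than in chow, and of the other 4, read from the wider fit, 2 were lower and 0 higher. The shares of all tested genes were 15.2% higher and 16.6% lower, and in the wider fit 11.7% and 12.1%. In berberine against high-fat diet 15.8% of all tested genes were higher and 14.9% lower. Lef1 and Tcf7, which act in T cells and as effectors of Wnt signalling in gut epithelium, were higher: Lef1 averaged 6.20 ± 1.47 CPM in berberine, 40.0 ± 9.6 CPM in high-fat diet and 5.31 ± 1.61 CPM in chow libraries (2.91 for high-fat diet against chow, adjusted p = 0.00046) and reached the filter only through the high-fat diet libraries, and Tcf7 gave 1.56 (adjusted p = 0.00536). Bcl11b, a factor of T cell commitment, was the third that was higher (0.75, adjusted p = 0.0112). Among those that were lower were Ikzf3, a zinc-finger factor of lymphocytes (-1.11, adjusted p = 0.0352), and Zbtb7b, which directs the CD4 fate (-0.75, adjusted p = 0.00274). Per length, Zbtb7b averaged 35.1, 21.8 and 33.6 FPKM in berberine, high-fat diet and chow libraries, above Cd4 (6.91, 1.92 and 5.09 FPKM). Bcl11b averaged 3.70 FPKM in high-fat diet libraries, where Cd3e averaged 0.430 FPKM. Which cells held the RNA of Zbtb7b and Bcl11b was not tested. In berberine against high-fat diet 3 were higher, Ikzf3 and Zbtb7b among them, Lef1 and Tcf7 were lower (-2.69 and -1.47), and Bcl11b was not called (-0.49, adjusted p = 0.0579).

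Among other cytotoxic effector genes, those called over the filter of 1 FPKM differed in the opposite direction to Gzmb. Of 16 such genes 6 passed that filter. In high-fat diet against chow 3 were lower and 0 higher, and in berberine against high-fat diet 4 were higher and 0 lower. Over all tested genes 16.6% were lower in the first comparison and 15.8% higher in the second. Ccl5, a chemokine of activated T and NK cells, averaged 13.5 ± 3.1 CPM in berberine, 1.61 ± 0.63 CPM in high-fat diet and 11.5 ± 4.6 CPM in chow libraries (-2.84 for high-fat diet against chow, adjusted p = 0.00152; 3.07 for berberine against high-fat diet, adjusted p = 0.00116). Nkg7, a granule membrane protein, gave -2.19 (adjusted p = 0.0024) and 2.30 (adjusted p = 0.00197), and Ctsw, cathepsin W of cytotoxic lymphocytes, gave -1.45 (adjusted p = 0.0153) and 2.01 (adjusted p = 0.00419). Prf1, the pore-forming partner of the granzymes, was under the filter and averaged 1.59 ± 0.62 CPM in berberine, 0.335 ± 0.331 CPM in high-fat diet and 1.16 ± 0.37 CPM in chow libraries, and in the wider fit it was not called (adjusted p = 0.268 for high-fat diet against chow and 0.17 for berberine against high-fat diet). Of the 8 genes tested in the wider fit alone, 1 was lower and 1 higher in high-fat diet than in chow, against 12.1% and 11.7% of all genes in that fit. The higher one was Gzme, another granzyme gene (adjusted p = 0.0432), at 0.351 ± 0.402 CPM in high-fat diet libraries and listed at 0 in all chow libraries. It reached the filter of 0.1 FPKM only through the high-fat diet libraries (a mean of 0.355 FPKM, against 0.0193 FPKM in berberine libraries), so its call is tied to the filter.

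Of 10 natural killer and innate lymphoid markers 2 were tested over the filter of 1 FPKM and 4 more in the wider fit. Ncr1, a receptor of natural killer cells, was lower in high-fat diet than in chow (-1.98, adjusted p = 0.0394) and higher in berberine than in high-fat diet (2.31, adjusted p = 0.0238). Il1rl1, the interleukin 33 receptor that mast cells and type 2 lymphoid cells carry, averaged 17.6 ± 6.8 CPM in berberine, 142 ± 141 CPM in high-fat diet and 9.07 ± 4.77 CPM in chow libraries. Unlike Ncr1, Il1rl1 was higher in high-fat diet than in chow (3.97, adjusted p = 0.02). It was lower in berberine than in high-fat diet (-3.01, adjusted p = 0.0491), and the groups overlapped in both comparisons. The summed level of the list, which holds Il1rl1, was 18.7 to 32.5 CPM in berberine, 12.5 to 293 CPM in high-fat diet and 14.1 to 19.5 CPM in chow libraries. In the wider fit the lectin-like receptor genes Klrd1 and Klrk1 were lower in high-fat diet than in chow (-1.99, adjusted p = 0.0385, and -1.85, adjusted p = 0.0118) and higher in berberine than in high-fat diet (2.42, adjusted p = 0.0203, and 2.25, adjusted p = 0.00563). Their means in high-fat diet libraries were 0.368 and 0.657 CPM, and Klrg1, a related receptor gene that was not called, averaged 0.860 CPM in berberine, 0.805 CPM in high-fat diet and 0.575 CPM in chow libraries. Klrb1c and Klre1 were listed at 0 in all high-fat diet libraries, as was Klra7, which was listed at 0 in all berberine libraries too.

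Most B cell and lymphoid tissue genes were called in the same direction as the CD3 chains. For comparison, 15.2% of all tested genes were higher and 16.6% lower in high-fat diet against chow. The shares were 15.8% higher and 14.9% lower in berberine against high-fat diet. Of 10 B cell genes, all tested, 9 were lower in high-fat diet than in chow and 10 were higher in berberine than in high-fat diet; their sum ran from 642 to 1214 CPM in berberine, 170 to 333 CPM in high-fat diet and 458 to 696 CPM in chow libraries. Of 9 tested lymphoid tissue chemokine and receptor genes, 8 were lower in high-fat diet than in chow and 9 were higher in berberine than in high-fat diet, with sums of 384 to 496 CPM in berberine, 75.7 to 126 CPM in high-fat diet and 222 to 447 CPM in chow libraries. Ccl19, a chemokine of T cell zones, averaged 9.13 ± 2.48 CPM in berberine, 0.894 ± 0.598 CPM in high-fat diet and 11.0 ± 6.5 CPM in chow libraries (-3.61 for high-fat diet against chow, adjusted p = 0.00424). Of 8 general leukocyte genes 3 were lower in high-fat diet than in chow and 7 were higher in berberine than in high-fat diet, and their sums were 687 to 1066 CPM in berberine, 294 to 474 CPM in high-fat diet and 469 to 713 CPM in chow libraries. Of 8 smooth muscle genes 3 were lower in high-fat diet than in chow and none was called in berberine against high-fat diet, with sums of 4514 to 5306 CPM in berberine, 1508 to 7296 CPM in high-fat diet and 8999 to 12800 CPM in chow libraries. Of the 8 epithelial genes 1 was higher and 1 lower in each of these comparisons, near the shares of all tested genes. Of 8 dendritic cell genes 2 passed the filter of 1 FPKM (Itgax and Itgae, integrins that other leukocytes also carry) and neither was called. In the wider fit 1 of the 6 other dendritic cell genes, Flt3, was lower in high-fat diet than in chow (adjusted p = 0.0211), and 4 were higher in berberine than in high-fat diet: Flt3 (0.00301), Zbtb46 (0.00539), Siglech (0.0325) and Xcr1 (0.0466). Over all genes of that fit 12.1% were lower in the first comparison and 11.2% higher in the second. The part of lymphoid follicles and of other tissue layers in the CD3 results was not tested.

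**Figure D5:**
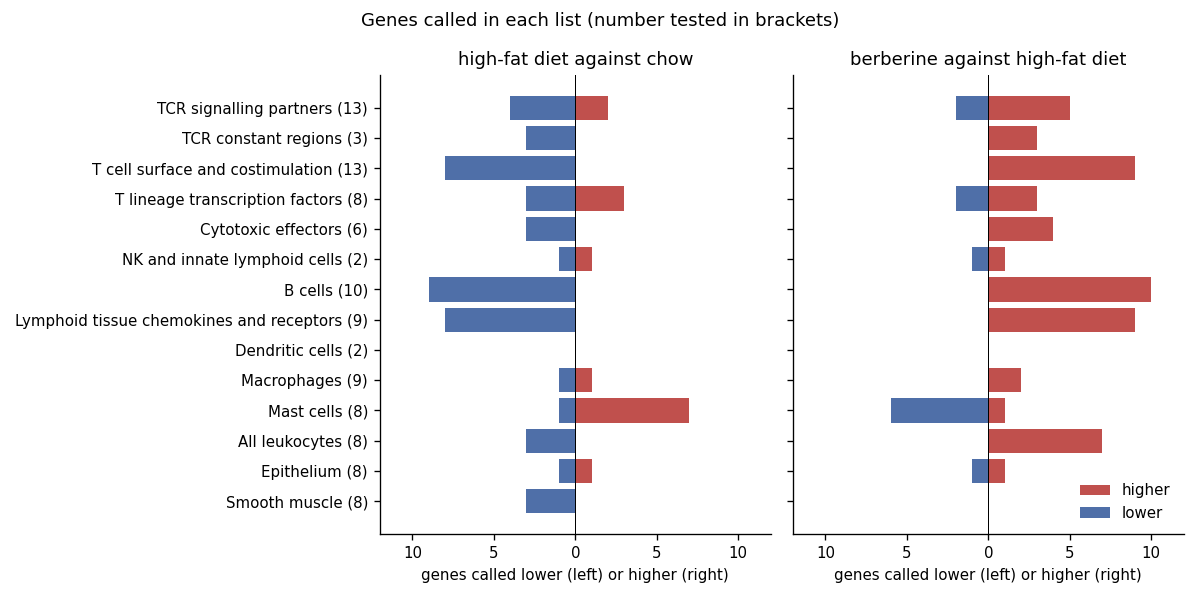
Number of genes called lower (left of 0) and higher (right of 0) in each gene list, for high-fat diet against chow and for berberine against high-fat diet, with the number tested in brackets. B cell genes are called lower for 9 of 10 in the first and higher for 10 of 10 in the second, while mast cell genes are called higher for 7 of 8 and lower for 6 of 8.

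The genes with the pattern most like that of the CD3 chains were ranked by the root-mean-square difference from the mean profile of Cd3d, Cd3e and Cd3g on the log2(CPM + 1) scale, each centred on its mean over the 9 libraries. Among 12506 candidates with a unique symbol the 10 nearest were Ndrg2 (0.184), Timd4 (0.193), Prr33 (0.194), Rhbdl2 (0.198), Cd27 (0.201), Slamf6 (0.217), Gpr132 (0.226), Rasgrp2 (0.226), Tldc2 (0.227) and Il2rb (0.232). They differ widely in level: Ndrg2 averaged 232 CPM in berberine, 67.5 CPM in high-fat diet and 202 CPM in chow libraries, and Tldc2 averaged 3.99, 0.726 and 4.36 CPM in the same groups. Cd4, at 0.142, lay nearer to the CD3 profile than any of these candidates, and Cd247 lay at 0.264. Cd8a and Lck were farther away, at 0.416 and 0.426. Zap70, Gzma and Gzmb were at 1.59, 1.71 and 2.44. Likeness over 9 libraries that form 3 groups is given as a description.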

How the data were processed

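Poly(A) RNA of mouse colonic tissue was sequenced with unique molecular identifiers in 9 libraries, 3 per group. Per the file headers, each gene and library has an FPKM value and an estimated count in the deposited table, both computed by the authors. The submitters' processing notes name the GRCm38 build and StringTie 1.3.4d, HISAT2 2.0.4, cutadapt 1.9, UMI-tools, edgeR and DESeq2; their roles and settings are not given in the sources used here. The counts were already whole, and low counts pile up at multiples of 4 (38.5% of counts from 1 to 20). Counting error may therefore be larger than the counts alone imply. Counts divided by 4 were run as an alternative setting, but the size of that error was not tested. No column belonged to samples outside the 9.

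The main test was edgeR 4.0.16 (R 4.3.3), with quasi-likelihood fits, TMM scaling and group as the only term, on the counts of all 9 libraries, for the 14506 genes whose mean reached 1 FPKM, which hold 98.9% of counts. P-values were adjusted by Benjamini-Hochberg over all tested genes, with calls at 0.05. Genes under that filter were read from a fit at 0.1 FPKM (22193 genes). CPM values use TMM-scaled library sizes. Standard errors were derived from the F statistic. Ratios to Cd3e used 0.1 CPM added and an exact permutation test. The fits were tested on simulated counts. Alternatives used DESeq2 1.42.0, limma 3.58.1 on log2(FPKM + 1) and log2(FPKM + 0.1), other scalings and filters, a replicate block and leaving out libraries. In no pair of libraries were more than 0.703% of the tested genes' counts identical.

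Named are the 10 genes, the members of 14 lists with the smallest p (3 per list and comparison, of which the text gives a part), defining markers at or near 0 and the 10 genes most like the CD3 profile. Other genes of the signalling, transcription factor, effector, natural killer, dendritic and mast cell lists were named for their call or their role, and some are not reported here. The genes and lists were chosen with earlier results of these data known. Promoter sequences are from RefSeq (GRCm38.p6). Figures were drawn with matplotlib 3.10.9.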

Additional observations from a re-analysis of the deposited data

How the results depend on the processing

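Cd3d, Cd3e, Cd3g and Cd4 kept their direction and call in all 20 alternative settings, in high-fat diet against chow and in berberine against high-fat diet. Over the 30 gene results, 543 of 594 alternatives kept their side of the threshold, 35 lost a call, 16 gained one and 0 called values reversed. All losses and gains fell in the comparisons with high-fat diet, since none of these genes was called in berberine against chow in any setting. Values that were not called changed sign in 9 alternatives, all in berberine against chow: Cd3e (range -0.13 to 0.55), Cd3g (-0.06 to 0.65), Cd247 (-0.29 to 0.71) and Gzma (-1.74 to 0.26). Genes called among the 8 ranged from 5 to 8 (6 in the main test) for high-fat diet against chow and, with 9 reached when Cd247 and Cd8a entered the fit, from 5 to 9 (7) for berberine against high-fat diet; for berberine against chow there were 0 in every setting. Over all genes, leaving out high-fat diet replicate 1 and chow replicate 2 together, an alternative chosen after seeing the data, gave 2923 calls for high-fat diet against chow (4613 in the main test) and 0 for berberine against chow (7). Leaving out 1 library gave 2960 (without berberine replicate 2) to 4740 calls for berberine against high-fat diet (4460) and 1 to 7 for berberine against chow. For berberine against chow, RLE scaling, the filter of 0.1 FPKM, only the 2 groups, counts divided by 4 and the replicate block each gave 2 calls, and DESeq2 gave 380; the cause was not tested. Correlations between libraries with the same replicate number ran from -0.0987 to 0.16, with 2 of 9 over 0.1. Those between differently numbered libraries ran from -0.219 to 0.16. These ranges overlap, and with 3 libraries per group they cannot exclude a shared batch. The replicate block gave 4344 and 4286 calls in the comparisons with high-fat diet, and with it Gzmb in high-fat diet against chow was at 3.14 (adjusted p = 0.0567) and Cd8a at -1.46 (0.0449). Scaling by library totals moved the median log2 fold change of all genes to 0.13 for high-fat diet against chow, with 2818 higher and 1886 lower, and to -0.115 for berberine against high-fat diet, with 1866 higher and 2686 lower. Low counts limit Gzma, Gzmb, Cd8a and Cd247.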

Other observations

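Gzmb lies beside other protease genes on chromosome 14 (GRCm38), and the deposited values of its neighbours were read over a window of 400 kb on either side, chosen after values had been seen, which holds 23 protein-coding entries with Gzmb. The mast cell proteases at one end were high in high-fat diet libraries: Mcpt2 (from 56042041) averaged 2.67 CPM in berberine, 579 CPM in high-fat diet (79.3 to 1335) and 0.603 CPM in chow libraries, and Mcpt4 (from 56059629) averaged 0.641 CPM in berberine, 67.6 CPM in high-fat diet (8.28 to 167) and 0.183 CPM in chow libraries. The granzyme genes between these and Gzmb were at 1.53 CPM or less in every library. Gzmc, the nearest to Gzmb, averaged 0.239 CPM in berberine, 0.775 CPM in high-fat diet and 0.133 CPM in chow libraries, and Gzmn was at 0 in all 9 libraries. These proteases are related in sequence, and whether reads were shared between them was not tested.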
